A study of Drosophila melanogaster with 21 samples.

Results

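A set of 7 genes that make and move monoamines was followed in RNA-sequencing libraries from the heads of female flies: *ple*, *Ddc*, *Vmat*, *DAT*, *SerT*, *Tdc2* and *Tbh*. The 7 genes were chosen by name, as monoamine synthesis enzymes and transporters, and all 7 were found among the 17559 genes counted. The study knocked down fly homologs of genes in the human 3q29 deletion, alone and in pairs, and the libraries fall into 7 groups of 3 replicates each. Every group, controls included, carried the pan-neuronal driver *Elav-GAL4*, which turns on a transgene in neurons, and was reared at 25 °C.

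The *Cbp20/dlg1* knockdown combined the RNAi lines 107112 and 41136, and the *Cbp20/Fsn* knockdown combined 107112 and 26577. The individual knockdowns of *Cbp20*, *dlg1* and *Fsn* carried 107112, 41136 and 26577 alone. Line 107112 comes from the KK collection of the Vienna stock center, and 41136 and 26577 come from its GD collection. The Control KK flies (y1 w1118, *Elav-GAL4*) and the Control GD flies (w1118, *Elav-GAL4*) stand for these backgrounds. The individual *Cbp20* knockdown and both pairs were set against Control KK, and the *dlg1* and *Fsn* knockdowns against Control GD. Comparisons with the same control share its 3 libraries. The pairs also carry a GD line, so that Control KK matches only a portion of their background. Each gene was knocked down with 1 RNAi line in these libraries, and each library pooled heads of flies that were collected in groups of 40 to 50, at an age not given in the sources used here. A further knockdown from the same experiment is not analysed here.

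Dopamine is made from tyrosine by tyrosine hydroxylase, encoded by *ple*, and dopa decarboxylase, encoded by *Ddc*. The same decarboxylase takes the last step to serotonin. Octopamine, the insect counterpart of noradrenaline, is made from tyrosine by tyrosine decarboxylase (*Tdc2* in neurons) and tyramine beta-hydroxylase (*Tbh*). The vesicular transporter *Vmat* loads all of these amines into synaptic vesicles, while *DAT* and *SerT* carry dopamine and serotonin back into the cell after release. In the fly brain the amines come from small groups of neurons that act on arousal, learning, feeding and movement, and *ple* and *Ddc* also serve the hardening and colouring of the cuticle.

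Gene counts per library ranged from 17712938 to 28759171, with a median of 22289840, and levels are given as CPM, the counts of a gene scaled to a common library total after TMM normalization. Each of the 7 genes had at least 240 counts in every library, and all 7 were among the 10558 genes that passed the filter on low counts. A change was called at a false discovery rate (FDR) under 0.05 in edgeR's quasi-likelihood test. *Cbp20* RNA was lower in all 3 groups that carried its line (log2 fold change against Control KK −1.30 in *Cbp20/dlg1*, −1.23 in *Cbp20/Fsn* and −1.45 in *Cbp20* alone), and *Fsn* RNA was lower by 0.56 in *Fsn* and 0.53 in *Cbp20/Fsn* on the log2 scale. *dlg1* RNA was lower in *Cbp20/dlg1* (log2 fold change −0.35, FDR = 0.0238), but the reduction in the individual *dlg1* knockdown did not pass the test (−0.19, FDR = 0.316). In the *Fsn* knockdown, where neither is targeted, *dlg1* RNA was called lower (−0.31, FDR = 0.0209) and *Cbp20* RNA higher (0.33, FDR = 0.00623). There *dlg1* RNA stood at 257, 367 and 351 CPM in replicates 1 to 3, against 388 to 411 CPM in Control GD. The *dlg1* replicate 1 library stands apart, with 1.70 non-unique alignments per gene count against 0.187 to 0.750 in the others. The 5 neuron markers *elav*, *nSyb*, *brp*, *Syt1* and *Syx1A* were present in every library, with a sum between 2642 and 4801 CPM. *Fsn* replicate 1 had the lowest sum and was also the lowest of the 21 libraries for *Ddc*, *Vmat*, *DAT* and *Tbh*.

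The genes lie at separate loci, given here in the BDGP6.54 annotation, a later release than the one used for the counts. *ple* (FBgn0005626) occupies chromosome 3L from 6713356 to 6719525 and *Ddc* (FBgn0000422) chromosome 2L from 19116483 to 19120306, both on the minus strand. *Vmat* (FBgn0260964), *DAT* (FBgn0034136), *SerT* (FBgn0010414) and *Tdc2* (FBgn0050446) are on the minus strand of chromosome 2R, starting at 13513132, 16558567, 24404595 and 6684745 and ending at 13534251, 16565238, 24411074 and 6689974. *Tbh* (FBgn0010329) lies on the plus strand of chromosome X, from 7995697 to 8027394. Exons of *CG10561* on the other strand share 88 bases with *Ddc*, or 3.15% of its exon length, and exons of *CG13330* on the other strand share 2129 bases with *Vmat* (26.2%). The library kit keeps strand, but whether the counting used it is not given in the sources used here. *CG13330* itself was counted at only 0.048 to 0.428 CPM.

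Per kilobase of exon the 7 genes covered a wide range. *Ddc* was the highest, with a median of 122 CPM per kb over the 21 libraries, followed by *Vmat* at 39.9 CPM per kb and *ple* at 26.2 CPM per kb. The octopamine enzyme *Tbh* had a median of 12.3 CPM per kb. The membrane transporters *SerT* and *DAT* had medians of 9.08 and 7.50 CPM per kb, and *Tdc2* was the lowest at 6.44 CPM per kb. The first 4 genes kept this order in all 21 libraries. Among the last 3, the order *SerT*, *DAT*, *Tdc2* held in 14 libraries, *Tdc2* stood above *DAT* in 4, and *DAT* stood above *SerT* in 3, so that the neighbours at the low end are not separated in each library.

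**Figure D1:**
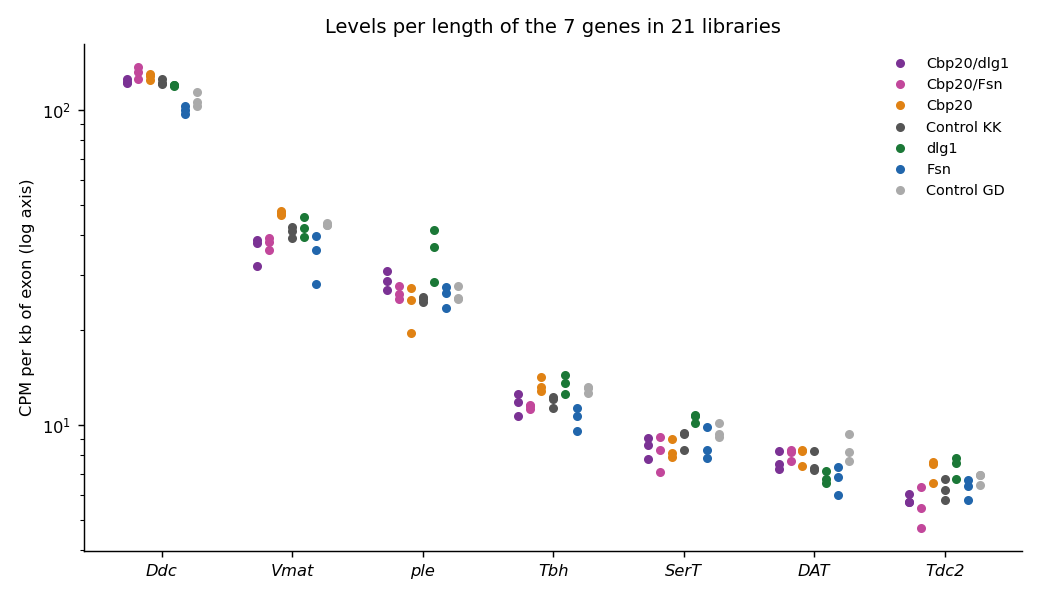
Level per length of each gene in each library, in CPM per kb of exon on a log axis; each point is 1 library and colours mark the 7 groups. *Ddc*, *Vmat*, *ple* and *Tbh* keep their order throughout, while *SerT*, *DAT* and *Tdc2* lie close together, with medians from 6.44 to 9.08 CPM per kb.

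Between groups the levels moved little. The ratio of the highest to the lowest group mean was 1.49 for *ple* (*dlg1* over *Cbp20*), 1.36 for *Vmat* (*Cbp20* over *Fsn*), 1.34 for *Tdc2* (*dlg1* over *Cbp20/Fsn*), 1.31 for *Ddc* (*Cbp20/Fsn* over *Fsn*), 1.28 for both *SerT* and *Tbh*, and 1.25 for *DAT*. In the 6 comparisons that involve only a group and a control, or the controls with each other, 6 of 42 tests of the 7 genes were called, while the share of all genes called ran from 9.26% to 38.2% over these comparisons, and the largest absolute log2 fold change was 0.46. None of the 7 genes passed FDR under 0.05 with a change beyond 2-fold in these comparisons. Over all genes tested, that stricter rule called 2.03% in *Cbp20/dlg1*, 3.00% in *Cbp20/Fsn*, 3.24% in *Cbp20*, 1.96% in *dlg1* and 2.41% in *Fsn*, and 3.36% in Control KK against Control GD.

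**Figure D2:**
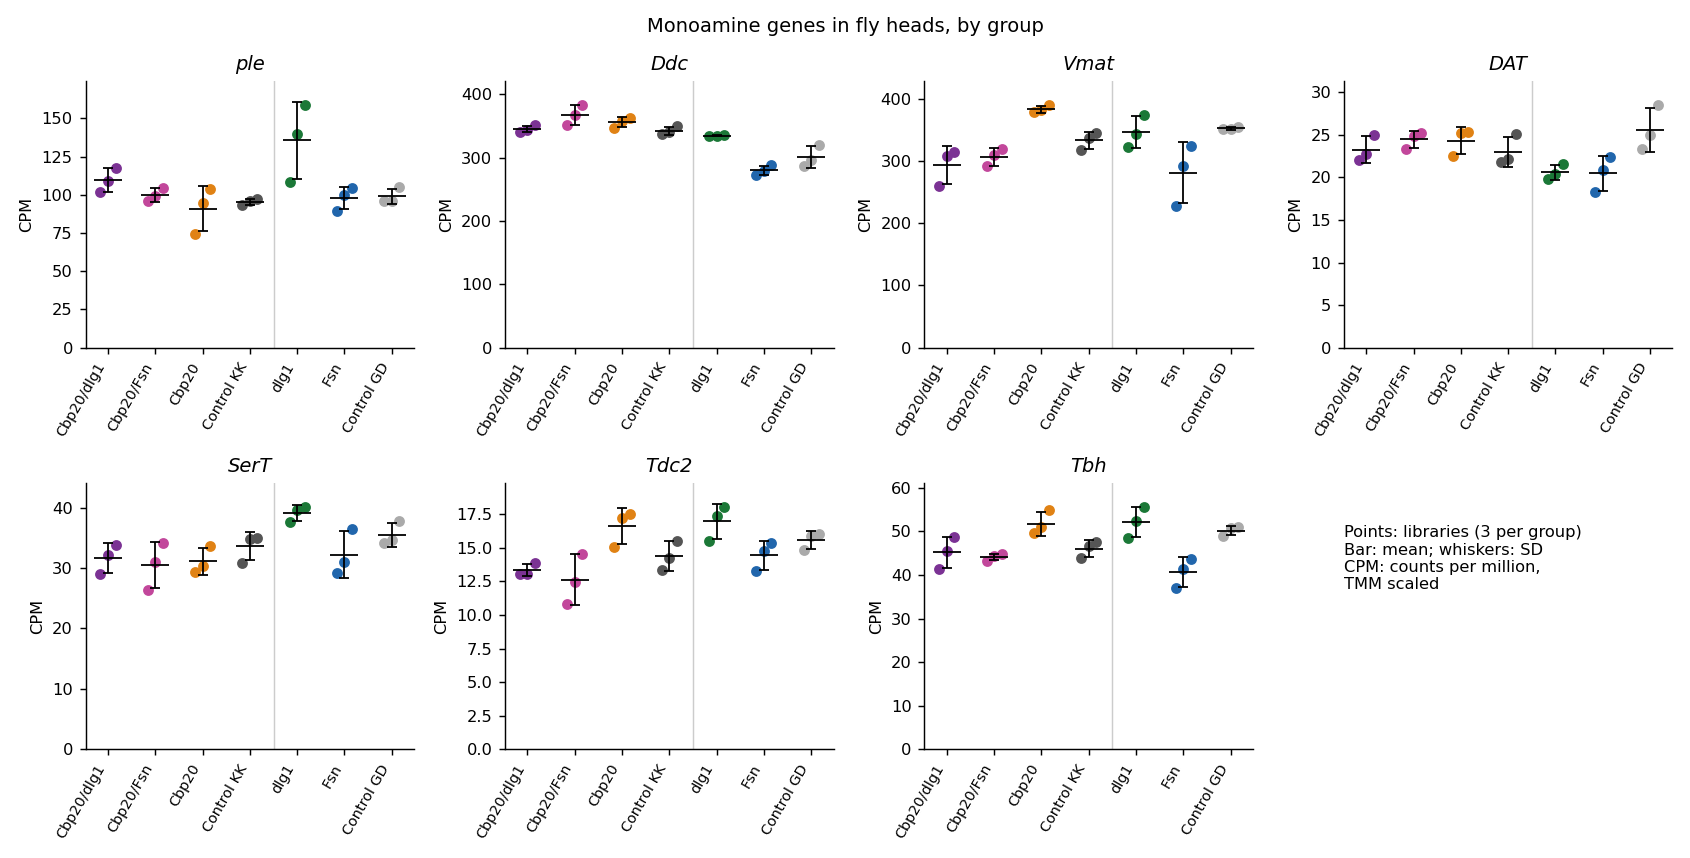
CPM of the 7 genes by group; points are libraries (3 per group), bars are means and whiskers are SD. The *ple* libraries of the *dlg1* group spread from 108 to 159 CPM, above the 95.8 to 105 CPM of Control GD, and *Vmat* in *Fsn* lies between 227 and 324 CPM, below the 351 to 355 CPM of Control GD.

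Knockdown of *dlg1*, which encodes a scaffold protein of synapses and cell junctions, was compared with Control GD to ask which genes it alters on its own. *ple*, the rate-limiting enzyme of dopamine synthesis, had 108, 139.9 and 159 CPM in the 3 *dlg1* libraries, against 105, 95.8 and 96.2 CPM in the 3 Control GD libraries. The groups did not overlap, but the *dlg1* libraries were far more spread, and the lowest of them lay close to the highest control. *ple* averaged 136 ± 25.3 CPM in *dlg1* and 98.9 ± 5.05 CPM in Control GD (SD, n = 3 each), a log2 fold change of 0.46 ± 0.11 (SE, edgeR FDR = 0.0146). Within the 3 sequencing batches it lay between 0.32 and 0.48. The batches are counts of the same libraries, so that such ranges, here and below, are not separate replication. *dlg1* replicate 3 has only 2 of them. The call was lost without *dlg1* replicate 2 (edgeR FDR = 0.0568) or 3 (FDR = 0.111), and without Control GD replicate 2 (FDR = 0.0633) or 3 (FDR = 0.0559). Without *dlg1* replicate 1, the library that stands apart, the log2 fold change was 0.59 (edgeR FDR = 0.00104).

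*DAT*, which clears dopamine from the synapse, moved the other way. It had 21.6, 19.8 and 20.4 CPM in *dlg1*, against 28.5, 24.9 and 23.4 CPM in Control GD. No *dlg1* library reached the lowest control, and Control GD replicate 1 was the highest of the 21 libraries. The log2 fold change was −0.31 ± 0.09 (SE, edgeR FDR = 0.0261), and between −0.35 and −0.14 within batches. It was not called without *dlg1* replicate 2 (edgeR FDR = 0.106) or 3 (FDR = 0.0860), nor without Control GD replicate 1 (FDR = 0.163) or 2 (FDR = 0.0553), and against Control KK in place of Control GD it was −0.16 (FDR = 0.202).

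The remaining genes were not called in *dlg1*. *Ddc*, the second dopamine enzyme, had 335, 335 and 334 CPM in *dlg1*, against 287, 296 and 319.7 CPM in Control GD. The *dlg1* libraries were nearly equal and all above the controls, with a log2 fold change of 0.15 that lay just outside the threshold (edgeR FDR = 0.0528), although DESeq2 called it. Without Control GD replicate 3, the highest control, it was 0.20 (edgeR FDR = 0.0210). *SerT*, *Tdc2*, *Tbh* and *Vmat* had log2 fold changes between −0.03 and 0.14. Thus 2 of the 7 genes were called, 1 higher and 1 lower, where 9.26% of all genes were called, and the median log2 fold change of the 7 was 0.12 against 0.0089 over all genes. None of the 5 neuron markers was called in this comparison. Levels were also expressed per 1000 CPM of their sum, a scale chosen after the values were seen. On it *ple* was 30.8 ± 4.12 in *dlg1* and 22.2 ± 0.918 in Control GD (SD, n = 3 each). *DAT* was 4.72 ± 0.449 in *dlg1* and 5.73 ± 0.422 in Control GD. The sum itself averaged 4384 CPM in *dlg1* and 4465 CPM in Control GD, so that this scale could hardly change the direction of either gene. The 6 cuticle markers summed to between 538 and 605 CPM in *dlg1*, against 497 to 515 CPM in Control GD, but 1 was called higher and 1 lower, and the median log2 fold change of the 6 was −0.15. The 5 glia markers summed to between 1645 and 1695 CPM in *dlg1*, against 1868 to 1884 CPM in Control GD, with 2 of 5 called lower. The 8 antenna markers summed to between 14.4 and 30.7 CPM in *dlg1*, against 49.8 to 125 CPM in Control GD. The part of these markers in the *ple* and *DAT* results was not tested.

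Knockdown of *Fsn*, which encodes an F-box protein of a ubiquitin ligase that acts at synapses, called 3 of the 7 genes, all of them lower. *Tbh*, which turns tyramine into octopamine, had 36.9, 43.8 and 41.3 CPM in *Fsn*, against 50.7, 48.9 and 50.9 CPM in Control GD. Every *Fsn* library was below every control, and the log2 fold change was −0.31 ± 0.07 (SE, edgeR FDR = 0.00302). *DAT* had 18.2, 22.4 and 20.8 CPM in *Fsn*, against 28.5, 24.9 and 23.4 CPM in Control GD, again without overlap, and a log2 fold change of −0.33 ± 0.09 (SE, edgeR FDR = 0.00712). *Tbh* and *DAT* stayed called whichever of the 6 libraries was left out. With the first sequencing batch alone both lost their call (edgeR FDR = 0.136 and 0.0746). In a fit of only the *Fsn* and Control GD libraries, *Tbh* stayed called (edgeR FDR = 0.0367) and *DAT* did not (FDR = 0.0616).

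*Vmat*, the vesicle loader shared by all monoamine neurons, had 227, 324 and 292 CPM in *Fsn*, against 351, 355 and 351 CPM in Control GD. The controls were tightly grouped, all *Fsn* libraries were lower, and *Fsn* replicate 1 was the lowest of the 21 libraries. The log2 fold change was −0.33 ± 0.10 (SE, edgeR FDR = 0.0137). Without *Fsn* replicate 1 it was −0.21 and no longer called (edgeR FDR = 0.0682). Nor was *Vmat* called in a fit of only the *Fsn* and Control GD libraries (edgeR FDR = 0.0927). Within batches the log2 fold changes lay between −0.38 and −0.21 for *Tbh*, between −0.48 and −0.11 for *DAT* and between −0.46 and −0.27 for *Vmat*. Against Control KK in place of Control GD they were −0.18 for *Tbh* (edgeR FDR = 0.0629), −0.18 for *DAT* (FDR = 0.137) and −0.25 for *Vmat* (FDR = 0.0658), so that all 3 calls depended on the matching control.

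These 3 of 7 genes, all lower, stood beside 38.2% of all genes called in *Fsn*, a share close to theirs. The median log2 fold change of the 7 was −0.14 against 0.03 over all genes. *Ddc*, *SerT*, *Tdc2* and *ple* were not called, with log2 fold changes between −0.14 and −0.02, although DESeq2 called *Ddc*. Without *Fsn* replicate 2, *SerT* was also called (−0.24, edgeR FDR = 0.0460, against −0.14 with all libraries).

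General neuron markers were lower in the same libraries. Their sum was 2642 to 3848 CPM in *Fsn* and 4272 to 4585 CPM in Control GD, and 4 of 5 were called lower, with a median log2 fold change of −0.58 over the 5. The 5 fat body markers summed to between 46357 and 63967 CPM in *Fsn*, against 23459 to 29131 CPM in Control GD, and 4 of 5 were called higher. The 8 antenna markers summed to between 21.6 and 27.8 CPM in *Fsn*, against 49.8 to 125 CPM in Control GD, and 7 of 8 were called lower. Expressed per 1000 CPM of the neuron markers, a scale chosen after the values were seen, *Vmat* stood at 84.8 ± 1.03 in *Fsn* and 79.0 ± 2.92 in Control GD, *Tbh* at 12.4 ± 1.38 and 11.3 ± 0.597, and *DAT* at 6.24 ± 0.586 and 5.73 ± 0.422 (SD, n = 3 each). On that scale none of the 3 genes had a lower mean in *Fsn*. In whole heads, fewer cells of a type and less RNA per cell cannot be told apart.

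**Figure D3:**
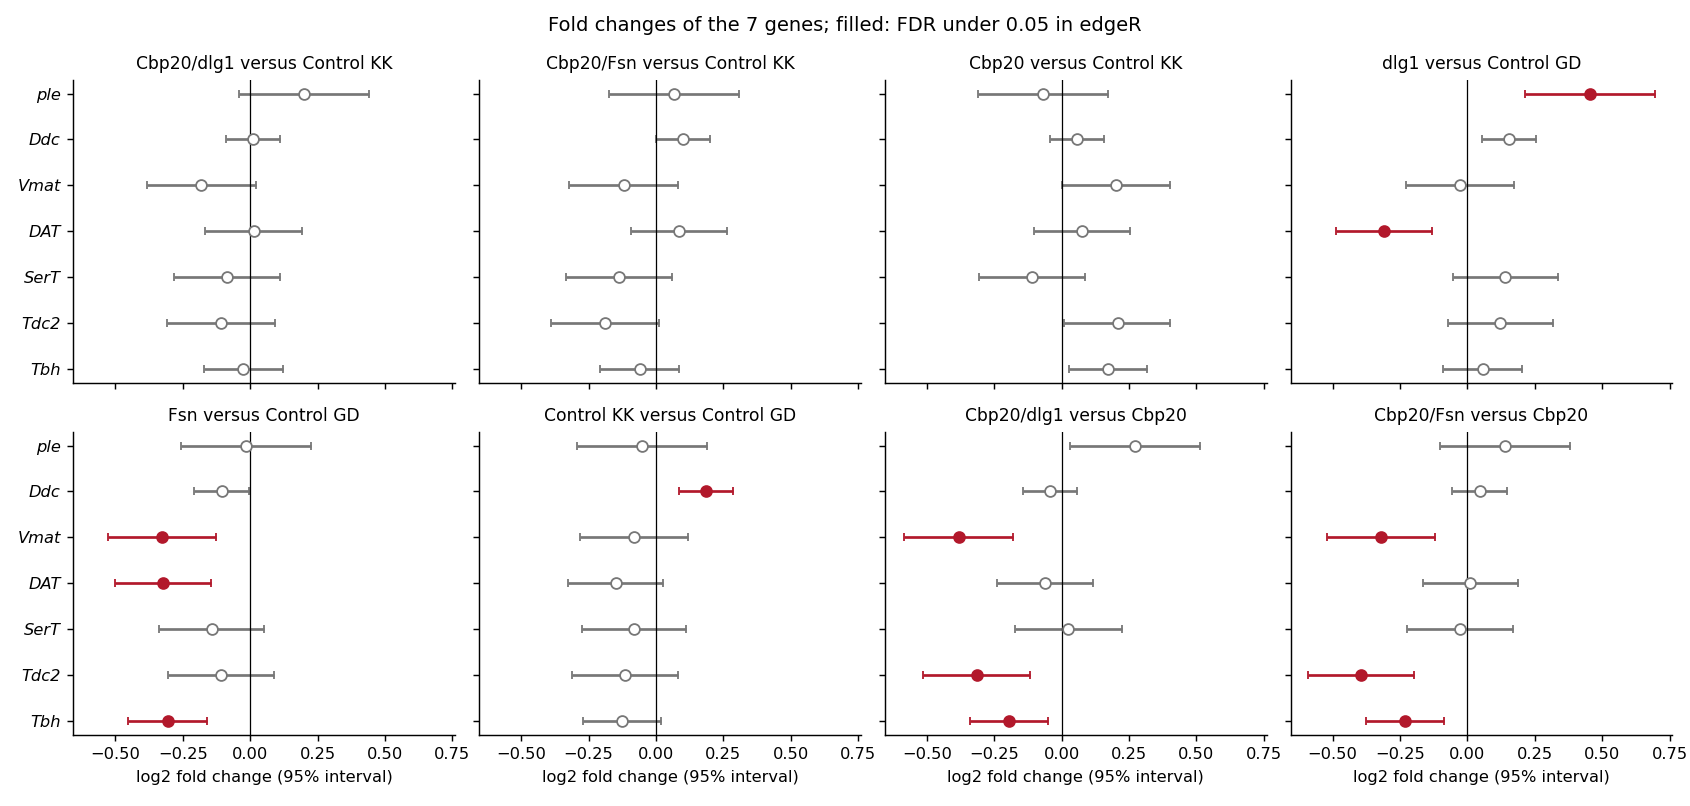
Log2 fold changes of the 7 genes with 95% intervals in 8 comparisons, the first-named group over the second; filled red points passed FDR under 0.05 in edgeR. *Vmat* and *Tbh* are lower in *Fsn* against Control GD and in both pairs against *Cbp20*, while no gene is called in the 3 comparisons with Control KK.

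Knockdown of *Cbp20*, whose protein helps bind the cap of new transcripts in the nucleus, called none of the 7 genes against Control KK, where 21.6% of all genes were called. At an unadjusted p under 0.05 in edgeR there were 3. The share of all genes that met this looser rule was not counted. It is at least 21.6% and can be well above it. DESeq2 called 0. The 3 were *Tbh*, *Vmat* and *Tdc2*. *Tbh* had 50.9, 54.9 and 49.5 CPM in *Cbp20*, against 47.6, 46.7 and 43.9 CPM in Control KK, and *Vmat* had 389, 378 and 382 CPM in *Cbp20*, against 337, 345 and 318 CPM in Control KK. Neither overlapped between the groups, but how many of all genes separate in this way was not counted. *Tdc2*, with 15.1, 17.5 and 17.2 CPM in *Cbp20* and 13.3, 15.5 and 14.3 CPM in Control KK, did overlap.

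The log2 fold changes of these 3 genes were 0.17 for *Tbh* (95% interval 0.03 to 0.32, edgeR FDR = 0.0860), 0.20 for *Vmat* (FDR = 0.146) and 0.21 for *Tdc2* (0.01 to 0.40, FDR = 0.126). In a fit of only the *Cbp20* and Control KK libraries, *Tbh* and *Vmat* passed the threshold (edgeR FDR = 0.0447 and 0.00414). The dopamine and serotonin genes *ple*, *Ddc*, *DAT* and *SerT* had log2 fold changes between −0.11 and 0.08. The neuron markers summed to between 4562 and 4801 CPM in *Cbp20*, against 3811 to 3979 CPM in Control KK, and 1 of 5 (*elav*) was called higher. Per 1000 CPM of neuron markers, *Vmat* was 81.4 ± 1.36 in *Cbp20* and 85.4 ± 3.67 in Control KK, and *Tbh* was 11.02 ± 0.884 in *Cbp20* and 11.8 ± 0.636 in Control KK (SD, n = 3 each).

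The pairwise knockdowns also called none of the 7 genes against Control KK. In *Cbp20/dlg1*, 13.1% of all genes were called, and no member had an unadjusted p under 0.05 or a DESeq2 call. The log2 fold changes ran from −0.18 for *Vmat* to 0.20 for *ple*. *Vmat* had 314, 308 and 259 CPM in *Cbp20/dlg1*, against 337, 345 and 318 CPM in Control KK. *ple* had 109, 118 and 102 CPM in *Cbp20/dlg1*, against 93.4, 97.0 and 95.6 CPM in Control KK, and the 95% interval of its log2 fold change reached from −0.04 to 0.44. An increase of the size seen in the individual *dlg1* knockdown therefore falls just outside the interval. The difference between these effects, tested with the sum of the individual knockdowns, was −0.18 for *ple* (95% interval −0.52 to 0.16).

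In *Cbp20/Fsn*, 17.1% of all genes were called, and again no member had an unadjusted p under 0.05 or a DESeq2 call. The log2 fold changes ran from −0.19 for *Tdc2* to 0.10 for *Ddc*. *Tdc2* had 12.5, 14.6 and 10.8 CPM in *Cbp20/Fsn*, against 13.3, 15.5 and 14.3 CPM in Control KK. Replicate 2 of the pair was the only one within the range of the controls, and without it the log2 fold change of *Tdc2* was −0.30 (edgeR FDR = 0.0386). *Ddc* had 368, 383 and 351 CPM in *Cbp20/Fsn*, against 340.3, 338 and 349 CPM in Control KK, without overlap but with the lowest pair library close to the highest control.

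The pairs were then compared with the individual *Cbp20* knockdown. They differ from it by the second knockdown and by the background of its GD line, which cannot be told apart here. *Cbp20* RNA itself had log2 fold changes of 0.15 in *Cbp20/dlg1* (edgeR FDR = 0.282) and 0.22 in *Cbp20/Fsn* (FDR = 0.103), neither called. The same 3 genes were lower in both pairs: the vesicular transporter *Vmat* and the octopamine enzymes *Tdc2* and *Tbh*. Both comparisons use the same *Cbp20* libraries in which the mean of each of these genes was above that of Control KK, with no call and, for *Tdc2*, with overlapping libraries. With 3 of the 7 called in each, the share of all genes called was 32.2% for *Cbp20/dlg1* and 29.2% for *Cbp20/Fsn*.

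*Vmat* had 314, 308 and 259 CPM in *Cbp20/dlg1* and 291, 319 and 309 CPM in *Cbp20/Fsn*, against 389, 378 and 382 CPM in *Cbp20*. All 6 pair libraries lay well below the 3 *Cbp20* libraries. The log2 fold change was −0.38 ± 0.10 in *Cbp20/dlg1* (SE, edgeR FDR = 0.00527) and −0.32 ± 0.10 in *Cbp20/Fsn* (FDR = 0.0178). In *Cbp20/dlg1* it stayed called whichever of the 6 libraries was left out. In *Cbp20/Fsn* the call was lost without *Cbp20* replicate 1 (edgeR FDR = 0.0619) or 3 (FDR = 0.0509) and without *Cbp20/Fsn* replicate 1 (FDR = 0.0883).

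*Tdc2* had 13.9, 13.1 and 13.1 CPM in *Cbp20/dlg1* and 12.5, 14.6 and 10.8 CPM in *Cbp20/Fsn*, against 15.1, 17.5 and 17.2 CPM in *Cbp20*. The pairs were again below *Cbp20* in every library, although *Cbp20/Fsn* replicate 2 came close to *Cbp20* replicate 1. The log2 fold change was −0.32 ± 0.09 in *Cbp20/dlg1* (SE, edgeR FDR = 0.0161) and −0.39 ± 0.09 in *Cbp20/Fsn* (FDR = 0.00458). The call held in each of the 6 fits that left a library out for *Cbp20/Fsn*. For *Cbp20/dlg1* it was lost without *Cbp20* replicate 2 (edgeR FDR = 0.0655) or 3 (FDR = 0.0566) and without *Cbp20/dlg1* replicate 3 (FDR = 0.0586).

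*Tbh* had 48.6, 45.6 and 41.4 CPM in *Cbp20/dlg1* and 43.3, 44.4 and 44.7 CPM in *Cbp20/Fsn*, against 50.9, 54.9 and 49.5 CPM in *Cbp20*. The log2 fold change was −0.20 ± 0.07 in *Cbp20/dlg1* (SE, edgeR FDR = 0.0367), the smallest of the calls in these 2 comparisons. It was lost there without *Cbp20* replicate 1 (edgeR FDR = 0.0616) or 2 (FDR = 0.151) and without *Cbp20/dlg1* replicate 2 (FDR = 0.0636) or 3 (FDR = 0.200). In *Cbp20/Fsn* it was −0.23 ± 0.07 (SE, edgeR FDR = 0.0177), lost without *Cbp20* replicate 2 (FDR = 0.0816) or *Cbp20/Fsn* replicate 1 (FDR = 0.0806).

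Within the sequencing batches, all 3 genes were lower in both pairs. The log2 fold changes ranged from −0.42 to −0.35 for *Vmat*, from −0.33 to −0.24 for *Tdc2* and from −0.26 to −0.14 for *Tbh* in *Cbp20/dlg1*. In *Cbp20/Fsn* they ranged from −0.35 to −0.28, from −0.47 to −0.29 and from −0.28 to −0.22 for the genes in that order. *ple* was not called in *Cbp20/dlg1* against *Cbp20* (0.27, edgeR FDR = 0.0793), but was without *Cbp20* replicate 1 (0.37, FDR = 0.0337). *DAT*, *SerT* and *Ddc* had log2 fold changes between −0.06 and 0.045 in the pairs.

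Here too the sum of the neuron markers was lower. It lay between 3330 and 4237 CPM in *Cbp20/dlg1* and between 3560 and 4041 CPM in *Cbp20/Fsn*, against 4562 to 4801 CPM in *Cbp20*. Of the 5 markers, 1 and 2 were called lower, beside 32.2% and 29.2% of all genes. The fat body markers summed to between 32350 and 42807 CPM in *Cbp20/dlg1* and between 29412 and 33378 CPM in *Cbp20/Fsn*, against 16173 to 21031 CPM in *Cbp20*. Per 1000 CPM of neuron markers, *Vmat* was 75.4 ± 2.02 in *Cbp20/dlg1*, 80.6 ± 1.47 in *Cbp20/Fsn* and 81.4 ± 1.36 in *Cbp20* (SD, n = 3 each). *Tdc2* was 3.45 ± 0.414, 3.32 ± 0.416 and 3.53 ± 0.358 on this scale in the same groups, and *Tbh* was 11.6 ± 0.728, 11.6 ± 0.588 and 11.02 ± 0.884. The libraries of the pairs and of *Cbp20* overlapped on this scale for *Tdc2* and *Tbh*, and for *Vmat* in *Cbp20/Fsn*.

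**Figure D4:**
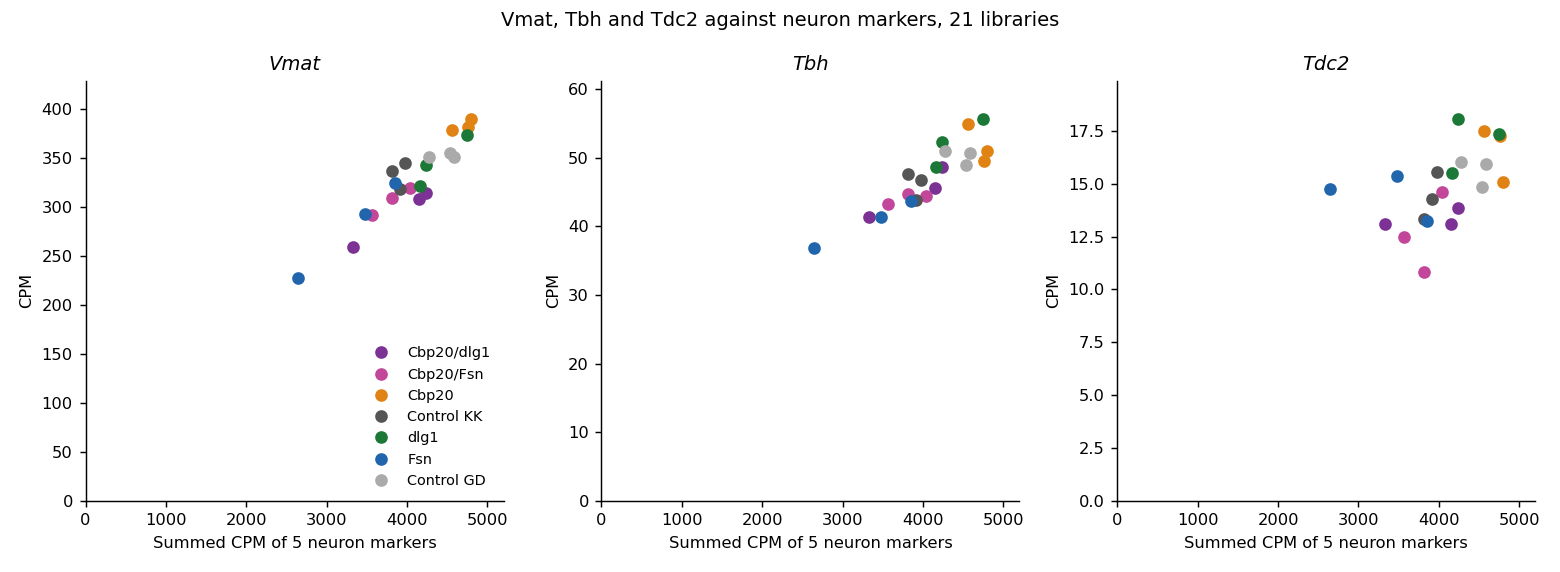
CPM of *Vmat*, *Tbh* and *Tdc2* against the summed CPM of 5 neuron markers in the 21 libraries, with groups in colour. *Vmat* and *Tbh* follow the sum closely across groups (Pearson's r of 0.94 and 0.90), and *Tdc2* less so (0.46), with *Fsn* replicate 1 at the low end of the marker scale.

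Each pair was further set against the added log2 fold changes of the individual knockdowns that compose it, each measured against its own control. In this difference Control KK cancels, so that it rests on the pair, *Cbp20*, the second knockdown and Control GD. For *Cbp20/dlg1*, *Tdc2* was lower than the sum by 0.44 ± 0.13 on the log2 scale (SE, edgeR FDR = 0.0286), where 18.1% of all genes were called. The individual knockdowns each had a higher mean of *Tdc2* than their control (log2 fold change 0.12 in *dlg1* and 0.21 in *Cbp20*, neither called), while the pair had −0.11 against Control KK (not called). Within the batches the difference from the sum ranged from −0.63 to −0.09. It was lost in 7 of the 12 fits that left out a library. These were the fits without *dlg1* replicate 2 or 3, *Cbp20* replicate 2 or 3, *Cbp20/dlg1* replicate 2 or 3, or Control GD replicate 2, with FDR between 0.0537 and 0.0711 in edgeR.

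*Vmat*, *Tbh* and *Ddc* had differences from the sum of −0.36, −0.25 and −0.20 in *Cbp20/dlg1* that were not called (edgeR FDR = 0.0773, 0.0811 and 0.0505). *Tbh* passed without *Cbp20/dlg1* replicate 1 (edgeR FDR = 0.0379) and *Ddc* without Control GD replicate 3 (FDR = 0.0199). Other settings also moved this count. The neuron markers had a median difference from the sum of −0.38, with 0 of 5 called. For *Cbp20/Fsn*, none of the 7 genes was called against the sum, where 6.72% of all genes were called. At an unadjusted p under 0.05 in edgeR there were 3 (*DAT* at 0.34, *Ddc* at 0.15 and *Tdc2* at −0.29), and DESeq2 called 0. The share of all genes that met that looser rule was not counted. It is at least 6.72% and can be well above it. *DAT* passed without *Fsn* replicate 2 (0.41, edgeR FDR = 0.0464).

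The controls were compared with each other to see what the genetic backgrounds contribute. *Ddc* had 340.3, 338 and 349 CPM in Control KK, against 287, 296 and 319.7 CPM in Control GD. All Control KK libraries were higher, and the log2 fold change was 0.19 ± 0.05 (SE, edgeR FDR = 0.00885), with 0.14 to 0.23 within batches. It was not called without Control GD replicate 1 (0.16, edgeR FDR = 0.0591). The other 6 genes had log2 fold changes between −0.15 and −0.05 and were not called, so that 1 of 7 was called where 20.9% of all genes were. The 8 antenna markers were all lower in Control KK, with sums of 11.7 to 13.97 CPM against 49.8 to 125 CPM in Control GD, and their part in the *Ddc* result was not tested. The calls on *Ddc* changed with the choice of control. Against Control GD in place of Control KK, it was higher by 0.20 in *Cbp20/dlg1*, by 0.29 in *Cbp20/Fsn* and by 0.24 in the *Cbp20* knockdown on the log2 scale. When *Fsn* was set against Control KK, the log2 fold change of *Ddc* was −0.29, and edgeR called each of these 4 changes.

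*SerT*, which takes serotonin back up, was not called in any of the 10 comparisons with all libraries. Its group means ran from 30.5 ± 3.87 CPM in *Cbp20/Fsn* to 39.1 ± 1.34 CPM in *dlg1* (SD, n = 3 each), with 33.6 ± 2.33 CPM in Control KK and 35.5 ± 1.95 CPM in Control GD. The 95% intervals of its log2 fold change against a control reached no lower than −0.34 and no higher than 0.33. Changes beyond these sizes lie outside the intervals.

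A wider list of monoamine genes was fixed for the other steps of these pathways, with earlier results of these data known: enzymes for the tetrahydrobiopterin cofactor that hydroxylases need, precursor enzymes, and enzymes that clear or conjugate amines. Of its 18 genes, 16 were matched and tested. In *Fsn* 9 of the 16 were called, beside 38.2% of all genes, with 5 higher (*Hn*, *pr*, *Sptr*, *Pcd* and *Dhpr*) and 4 lower (*e*, *Pu*, *Trhn* and *prt*) and a median log2 fold change of −0.01 against 0.03 over all genes. In *Cbp20* 9 of 16 were called as well, beside 21.6% of all genes, with 3 higher (*pr*, *Pu* and *Trhn*) and 6 lower (*Hn*, *Catsup*, *Sptr*, *Pcd*, *Dhpr* and *t*) and a median of 0.06 against 0.0063. In *dlg1* only *AANATL2* was called, lower, and in *Cbp20/dlg1* only *e*, also lower. These counts of 1 in 16 are under the 9.26% and 13.1% of all genes called there. In *Cbp20/Fsn* *Dhpr* was higher and *e*, *Hn* and *Trhn* were lower, 4 of 16 beside 17.1% of all genes. Between Control KK and Control GD 7 of 16 were called, beside 20.9% of all genes, with *amd*, *e*, *Hn* and *Sptr* higher and *Pu*, *AANATL2* and *t* lower in Control KK. In each pair against *Cbp20*, 11 of 16 were called, 6 higher and 5 lower, beside 32.2% of all genes for *Cbp20/dlg1* and 29.2% for *Cbp20/Fsn*. Against the sums, 6 of 16 were called for *Cbp20/dlg1* and 4 of 16 for *Cbp20/Fsn*, beside 18.1% and 6.72% of all genes.

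In the comparisons with a control, or between the controls, 3 genes of this list passed the test with a change beyond 2-fold. *Dhpr*, dihydropteridine reductase, which recycles the pterin cofactor, had 71.3, 52.3 and 64.5 CPM in *Fsn*, against 30.3, 27.6 and 32.9 CPM in Control GD. Every *Fsn* library was well above the controls, with a log2 fold change of 1.05 (edgeR FDR = 5.32e-07). *Hn*, the phenylalanine hydroxylase that supplies tyrosine, had 206.5, 184 and 200.4 CPM in *Cbp20*, against 416, 439 and 497 CPM in Control KK, with a log2 fold change of −1.20 (edgeR FDR = 1.02e-07). The groups were far apart, and *Hn* was instead higher in *Fsn* (log2 fold change 0.75, edgeR FDR = 4.38e-05). The fat body markers given above were likewise higher in *Fsn* and lower in *Cbp20*, where they summed to between 16173 and 21031 CPM against 40468 to 48358 CPM in Control KK, and their part in the *Hn* and *Dhpr* results was not tested. *AANATL2*, which is named as an arylalkylamine N-acetyltransferase-like gene, had 2.74, 2.23 and 2.30 CPM in Control KK, against 5.95, 5.78 and 4.97 CPM in Control GD, with a log2 fold change of −1.20 (edgeR FDR = 5.99e-05).

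*Trhn*, the neuronal tryptophan hydroxylase that starts serotonin synthesis, and *Pu*, GTP cyclohydrolase, which starts synthesis of the cofactor, were picked out after their values were seen, for their place at the head of these pathways. *Trhn* had 25.0, 25.4 and 24.1 CPM in *Cbp20*, against 19.2, 19.3 and 18.9 CPM in Control KK, with a log2 fold change of 0.38 (edgeR FDR = 7.2e-05). In *Fsn* it averaged 18.04 ± 0.568 CPM, against 21.1 ± 1.16 CPM in Control GD (SD, n = 3 each, log2 fold change −0.23, edgeR FDR = 0.00662). *Pu* averaged 450 ± 64.8 CPM in *Cbp20* and 281 ± 6.80 CPM in Control KK (SD, n = 3 each), a log2 fold change of 0.68 (edgeR FDR = 3.19e-06). In *Fsn* it averaged 273 ± 14.4 CPM, against 339.96 ± 25.2 CPM in Control GD (log2 fold change −0.32, edgeR FDR = 0.00547). Both thus rose in *Cbp20* and fell in *Fsn*. In the pairs against *Cbp20* they were lower, by log2 fold changes of −0.46 (*Trhn*) and −0.68 (*Pu*) in *Cbp20/dlg1* and −0.59 and −0.71 in *Cbp20/Fsn*, while *Hn* was higher, by 1.13 and 0.86, all called by edgeR. The neuron markers given above moved the same way as *Trhn* and *Pu* in *Cbp20* and *Fsn*. So did the 3 muscle markers, which summed to between 4706 and 6022 CPM in *Cbp20*, against 3815 to 4395 CPM in Control KK (3 of 3 called higher), and to between 3194 and 3582 CPM in *Fsn*, against 4310 to 4651 CPM in Control GD (2 of 3 called lower). Their part in the *Trhn* and *Pu* results was not tested. *Pu*, *pr*, *Hn* and *Sptr* also belong to the pteridine pathway that colours the fly eye.

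**Figure D5:**
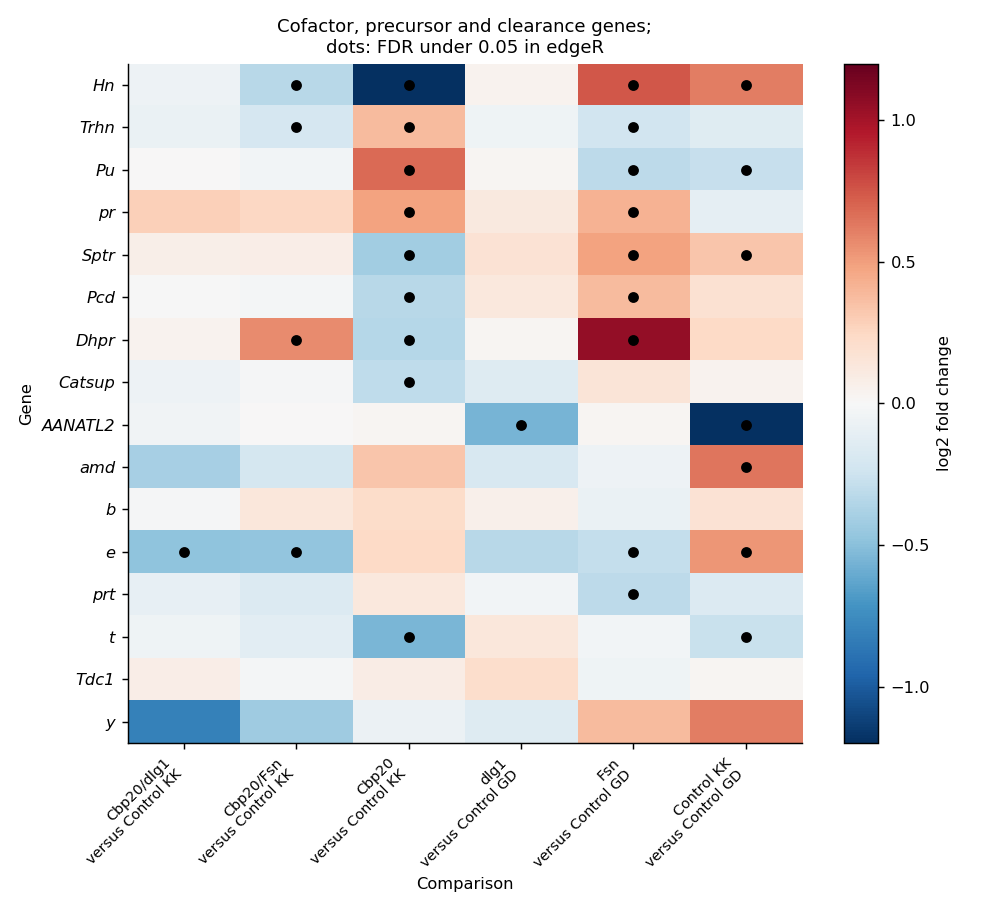
Log2 fold changes of 16 cofactor, precursor and clearance genes in 6 comparisons, the first-named group over the second; red is higher, blue is lower, and black dots mark FDR under 0.05 in edgeR. *Cbp20* and *Fsn* carry 9 dots each, *dlg1* and *Cbp20/dlg1* carry 1 each, and *Hn* is blue in *Cbp20* (−1.20) and red in *Fsn* (0.75).

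Across the 21 libraries the 7 genes did not vary as a unit. *Vmat* and *Tbh* were the most alike, with a Pearson's r of 0.89 and a Spearman's rho of 0.86 between their log2 levels. *Tdc2* and *Tbh*, which act one after the other in making octopamine from tyrosine, had an r of 0.59 and a rho of 0.71. *ple* and *Ddc*, the consecutive dopamine enzymes, had an r of −0.01, and *DAT* and *Tdc2* had −0.27. These values describe 21 libraries that share groups, controls and head composition, and carry no test.

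The genes most like each of the 7 were sought among the 8141 other genes whose mean reached 5 CPM. The closest to *Vmat* were *OtopLc* and *kmr* (r of 0.98 for both), and the closest to *Tbh* were *Tusp* (0.95) and *nAChRbeta1* (0.94). *Ddc* was most like *lncRNA:CR45284* (0.91) and *CG18095* (0.905), *Tdc2* most like *Lmx1a* (0.88) and *CG6184* (0.82), and *SerT* most like *jbug* (0.86) and *Orp8* (0.82). *ple* was most like *CG31869* (0.84) and *CG13947* (0.80, with a Spearman's rho of 0.60), and *DAT* most like FBgn0028993, for which no symbol was matched (0.79), and *CG8613* (0.79). The Spearman's rho of the other pairs lay between 0.77 and 0.96. The highest similarity was thus reached by *Vmat* and *Tbh*, which also followed the neuron markers most closely, and the lowest by *DAT*.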

How the data were processed

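The authors made TruSeq Stranded mRNA libraries from heads of frozen females, trimmed the reads with Trimmomatic 0.36, aligned them with TopHat2 2.1.1 to fly build 6.08 and counted reads per gene with HTSeq 0.6.1. The deposited values are raw counts per gene, without normalization, with a column for each sequencing batch. The 3 batches (2 in 4 of the 21 libraries) were summed per library, and rows that name no gene were removed. Reads on no gene were 10.2% to 14.6% of all reads on a gene, on no gene or ambiguous between genes. Groups came from the sample labels. Symbols were matched for 17253 of 17559 identifiers.

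Counts were fitted in R 4.3.3 with edgeR 4.0.16 (quasi-likelihood F test, legacy estimation, TMM, filterByExpr, 1 coefficient per group, all 21 libraries), and p-values were adjusted by the Benjamini-Hochberg method over all 10558 genes tested. SE is the absolute log2 fold change over the square root of F, and 95% intervals use the total degrees of freedom of the fit. A total of 3 counts equals 0.104 to 0.169 CPM, a floor for counting error only. Tested on simulated data for *Fsn* against Control GD with 10558 genes, the test recovered 69 of 100 genes changed by 0.5 and 92 of 100 changed by 1.5 on the log2 scale. Alternatives were DESeq2 1.42.0, RLE scaling, no filter on low counts, only the groups compared, a replicate block, the first batch alone, the other control, a threshold of 1 on the log2 fold change, and each library left out.

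The named genes were the 7 members, the knockdown targets, up to 3 genes per comparison with a control from a wider monoamine list past FDR 0.05 and 2-fold, and the 2 genes most like each member by Pearson's r of log2(CPM + 0.5). Members and lists were chosen with earlier results of these data known. The study's methods call the replicates biological. Whether they came from separate rearings is not given in the sources used here, and p-values measure the spread between these samples.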

Additional observations from a re-analysis of the deposited data

Results flagged for a closer look

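*Tdc2*, the neuronal tyrosine decarboxylase of octopamine synthesis, was listed because it passed the test against the sum of the *Cbp20* and *dlg1* knockdowns. Of all genes, 18.1% did so. The pair differs from *Cbp20* by the *dlg1* knockdown and by the background of its GD line, which cannot be told apart here. The difference from the sum was −0.44 on the log2 scale (edgeR FDR = 0.0286): *Tdc2* in *Cbp20/dlg1* was −0.32 against *Cbp20*, and in *dlg1* it was 0.12 against Control GD, which was not called. It was −0.63 to −0.09 within the sequencing batches, and it lost its call in 7 of 12 fits without 1 library.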

How the results depend on the processing

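No log2 fold change that was called changed its sign under any alternative. With the first sequencing batch alone, 1 of the 7 genes was called in each of *dlg1* and *Fsn* against Control GD and *Cbp20/Fsn* against *Cbp20*. With the control of the other background, 1 was called in each of *dlg1*, *Fsn*, *Cbp20* and *Cbp20/dlg1*, and 2 in *Cbp20/Fsn*. With only the groups compared, 1 was called in *Fsn*, 2 in *Cbp20* and 3 in *Cbp20/dlg1* against the sum, a count that was 2 with RLE scaling and 3 with DESeq2. The fold-change threshold of 1 left 0 in every comparison. Without 1 library at a time, the counts ranged from 0 to 2 in *dlg1*, from 2 to 4 in *Fsn*, from 0 to 1 in *Cbp20/Fsn* and in Control KK against Control GD, from 1 to 3 in each pair against *Cbp20*, and from 0 to 2 (*Cbp20/dlg1*) and 0 to 1 (*Cbp20/Fsn*) against the sum. The cause of these moves was not tested, apart from the fewer libraries or counts that some settings use.

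Replicate numbers showed no pairing common to all groups: over 63 same-numbered pairs the correlation of deviations averaged −0.0091 (−0.28 to 0.35). With 12 pairs over 0.1, an average cannot settle whether some of the groups were paired. With the replicate block the counts of called genes were those of the fit without it, for example 2 in *dlg1* and 3 in *Fsn*. With 3 libraries per group, the smallest log2 changes called were 0.19 for *Ddc* between the controls and −0.20 for *Tbh* in *Cbp20/dlg1* against *Cbp20*. The other genes had larger SE. Changes of 0.27 for *ple* in *Cbp20/dlg1* against *Cbp20* (edgeR FDR = 0.0793) and 0.20 for *Vmat* in *Cbp20* against Control KK (FDR = 0.146) were not called.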
